A study of Mus musculus with 8 samples.

Results

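Ancient mammalian LINE-1 (L1) copies were followed in ATAC-seq libraries of mouse lung primary fibroblasts. They were taken from a deposited count table of open chromatin regions (OCRs, the submitters' peaks) and annotated repeats as all rows of family L1 whose subfamily name begins with HAL1, L1P or L1M, without the names that begin with L1Md. The rule found 123677 copies of 90 subfamilies among the 4835895 regions of the table, which are 20.05% of its 616981 L1 copies and 4.17% of its 2968871 retrotransposon copies. Each genotype, cGAS KO and wild type (WT), had 4 libraries from 4 mice, 2 of them labelled female and 2 labelled male. The labels give neither the knockout allele, the strain nor the age of the mice. cGAS is a sensor enzyme for cytosolic DNA whose product leads to interferon signalling. A library is named by genotype, sex label and number, so that KO F1 is the library of the first cGAS KO mouse labelled female, and the 4 values of a genotype are always given in the order F1, F2, M1, M2. The title of the series names loss of chromatin organization and derepression of LINE1 elements as its subjects, and the comparison of KO with WT asks whether accessibility differs at these old copies.

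L1 elements are retrotransposons that copy themselves through RNA with a reverse transcriptase they encode. In the mouse the lineages that still move carry L1Md names, and the Lx lineages spread earlier in rodents. L1M names belong to lineages that spread in early mammals and lost the ability to move long ago, and their copies are short, diverged fragments. HAL1 elements are old relatives of L1 that lack the second reading frame, which in L1 holds the reverse transcriptase. Letters from L1MA to L1ME run broadly from younger to older lineages. In ATAC-seq a transposase inserts adapters into DNA it can reach in nuclei, so a count at a copy reflects access to that stretch of DNA and not its transcription.

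The table totals ranged from about 43247000 to about 72916000 counts per library, and 64.6% to 76.4% of them lay in OCRs. This OCR share was lowest in KO M2 (64.6%) and WT F1 (65.1%) and highest in KO M1 (75.8%) and WT M1 (76.4%), so it differed more within each genotype than between them. The library labelled KO F2 carried Y chromosome counts like those of the male-labelled libraries, and it kept its label in every fit. Markers of fibroblasts and other cell types, and the Cgas locus, were not analysed here. No sequence of a copy is printed, because no genome of the build of the table was used. The design text gives a separate mouse for each library, and p-values measure the spread between these 8 libraries. In bulk libraries, fewer cells of a type and less signal per cell cannot be told apart.

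The ancient copies were short and lay nearer to open chromatin than younger L1 copies. They covered 47.2 Mb in GRCm39, with a median length of 258 bases (interquartile range 143 to 471), against 629 bases for the 163850 L1Md copies and 420 bases for the 281895 Lx copies. Of the ancient copies, 6388 (5.17%) overlapped an OCR by at least 1 base, against 1.00% of L1Md and 2.36% of Lx copies. L2 and MIR, the old LINE and SINE families of other lineages, overlapped OCRs more often still, at 8.37% of 53303 and 8.04% of 101456 copies. Only 1598 ancient copies lay wholly inside an OCR, and 3251 had at least 50% of their length in one. Per kb of annotated copy, OCRs covered 25.2 bases of ancient L1, 0.937 bases of L1Md, 8.09 bases of Lx, 60.4 bases of L2 and 63.6 bases of MIR. The median distance of the other ancient copies from the nearest OCR was 6.18 kb, against 30.3 kb for L1Md, 24.3 kb for Lx, 4.33 kb for L2 and 3.60 kb for MIR.

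Name groups among the ancient copies differed in how much of them was open. The 35106 copies named L1M or L1M1 to L1M8 were the most numerous, followed by 21671 L1MA, 19616 L1MC, 17969 L1MB, 17503 L1ME, 8874 L1MD, 2718 HAL1 and 220 L1P copies. L1MB copies overlapped an OCR most often (7.24%), against 3.71% of L1MA and 4.29% of L1M1 to L1M8 copies, with HAL1, L1MC, L1MD and L1ME between 5.63% and 5.78%. OCR bases per kb were highest in HAL1 (37.9) and L1MB (37.6) and lowest in L1P (16.1), L1MA (18.2) and L1M1 to L1M8 (18.7). Among the 60 subfamilies with at least 100 kb of sequence, L1M2 had the fewest OCR bases per kb (9.76) and L1MEb the most (55.0), and L1MB7 followed with 45.7. The order of these groups does not follow the letters from L1MA to L1ME.

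The ancient copies held about the same share of counts in both genotypes. Their counts summed to about 530110 to 710920 per library. As a share of all counts in retrotransposons they were 4.25%, 4.33%, 4.68% and 3.98% in KO, and 4.11%, 4.32%, 4.47% and 4.52% in WT. The lowest and the highest share were both KO libraries, and the groups overlapped throughout. The mean share was 4.31% ± 0.29 for KO, against 4.35% ± 0.18 for WT (SD over 4 libraries each, as in all later means), a difference of -0.042 percentage points, smaller than the spread within either genotype. It changed sign without KO M2 (0.068) and without WT M2 (0.012), and took the opposite sign as a share of the whole table, where KO averaged 1.12% ± 0.10 and WT 1.06% ± 0.15. Among retrotransposon counts outside OCRs the ancient share was 3.67% ± 0.20 in KO and 3.69% ± 0.07 in WT. Copies that overlap an OCR, which share counts with it, held 32.4% ± 4.5 of the ancient L1 counts in KO and 33.8% ± 5.3 in WT.

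**Figure D1:**
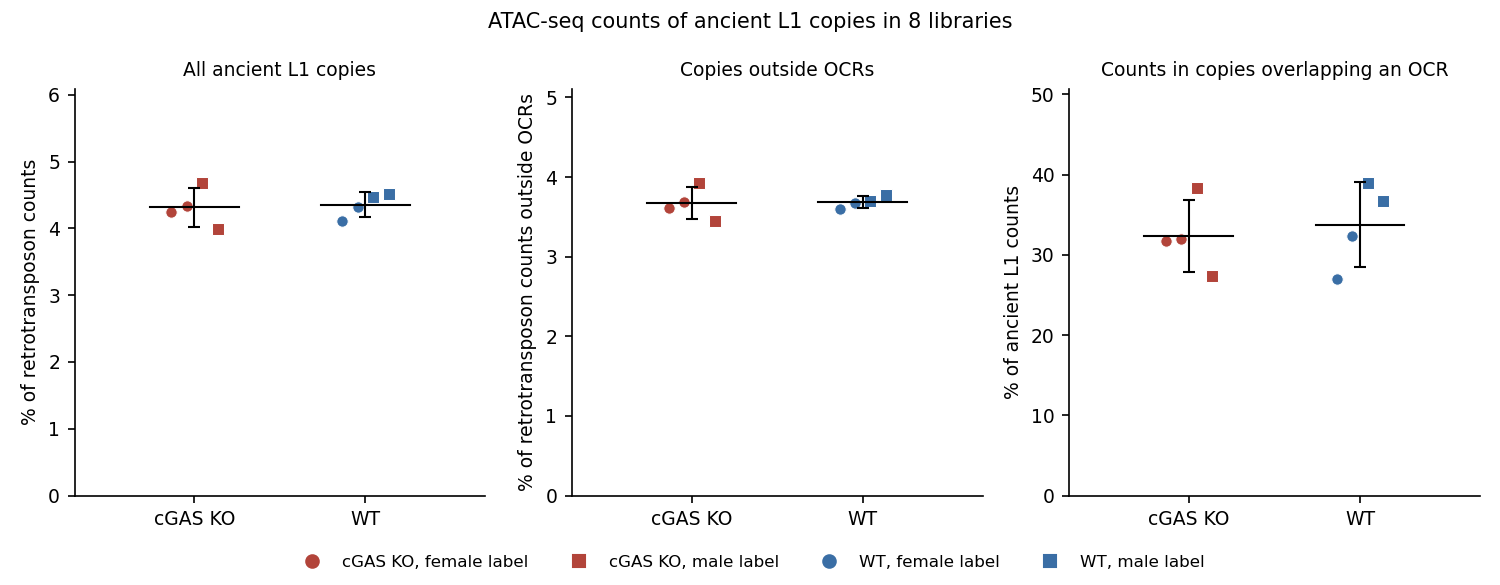
Ancient L1 counts per library as a percentage of retrotransposon counts (left), of retrotransposon counts outside OCRs (middle), and the percentage of ancient L1 counts in copies that overlap an OCR (right), for cGAS KO and WT. Circles are libraries labelled female and squares those labelled male, bars give mean ± SD of 4 libraries, and the genotypes overlap in each panel, with shares of 3.98% to 4.68% in KO and 4.11% to 4.52% in WT on the left.

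Counts fell off with distance from OCRs more steeply at ancient copies than at younger L1 copies. OCRs are themselves peaks of ATAC-seq counts, so some fall away from them is built in for every class. Densities are counts scaled to a table total of 1000000 (CPM) per kb of annotated copy. Copies that overlap an OCR had 1.10, 1.14, 1.17 and 1.05 in KO, and 1.05, 1.10, 1.11 and 1.14 in WT. The 16148 copies up to 1 kb away had 0.297, 0.328, 0.283 and 0.355 in KO, and 0.335, 0.307, 0.257 and 0.275 in WT. The 11769 copies over 100 kb away had 0.0921, 0.0611, 0.0416 and 0.0870 in KO, and 0.110, 0.0601, 0.0267 and 0.0552 in WT. Relative to its mean, the density varied little between libraries in copies that overlap an OCR and most over 100 kb away, in both genotypes, while the SD itself did not grow with distance (0.051 and 0.024 in KO, 0.035 and 0.035 in WT). The density up to 1 kb was 3.23, 5.37, 6.80 and 4.08 times that over 100 kb in KO, and 3.05, 5.11, 9.63 and 4.99 times in WT. The ratio was lowest in WT F1 and KO F1 and highest in WT M1 and KO M1. The OCR share of counts was likewise highest in WT M1 and KO M1, and its part in the ratio was not tested. On autosomes alone the ratio ranged from 2.90 (WT F1) to 8.79 (WT M1).

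The same ratio was smaller for L1Md, at 1.65, 2.04, 2.43 and 1.72 in KO and 1.65, 2.06, 2.68 and 1.96 in WT. Every library therefore had a steeper fall at ancient copies than at L1Md copies, and also than at Lx copies, whose ratios were 2.55 to 5.94. For MIR the ratios were 4.61 to 13.2, above those of ancient L1 in every library. Over all copies outside OCRs, ancient ones were denser than L1Md copies by 1.24, 1.53, 1.94 and 1.180 times in KO and by 1.205, 1.54, 1.99 and 1.53 times in WT. Over 100 kb from an OCR the order was the reverse, with ancient over L1Md ratios of 0.787, 0.686, 0.793 and 0.617 in KO and 0.771, 0.723, 0.609 and 0.736 in WT. Against Lx the ratios ran from 1.04 to 1.34 outside OCRs and from 0.652 to 0.804 over 100 kb. Near OCRs ancient copies were denser than L1Md copies in every library, at ratios of 1.43 to 2.22 up to 1 kb away. In copies that overlap an OCR these ratios were 2.75 to 4.12. Over 100 kb from an OCR ancient copies held fewer counts per kb than each of the L1Md, Lx, L2 and MIR copies there. Other L1 copies, of neither ancient, L1Md nor Lx names, were level with ancient copies there, at ancient over other ratios of 0.973 to 1.06. How reads that match several places equally well were treated is not given in the sources used here, and its part in the ratios to L1Md, whose copies resemble each other most, was not tested. The mean ratio to L1Md outside OCRs was 1.52, and 1.16 when only copies of 200 to 1000 bases were used.

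**Figure D2:**
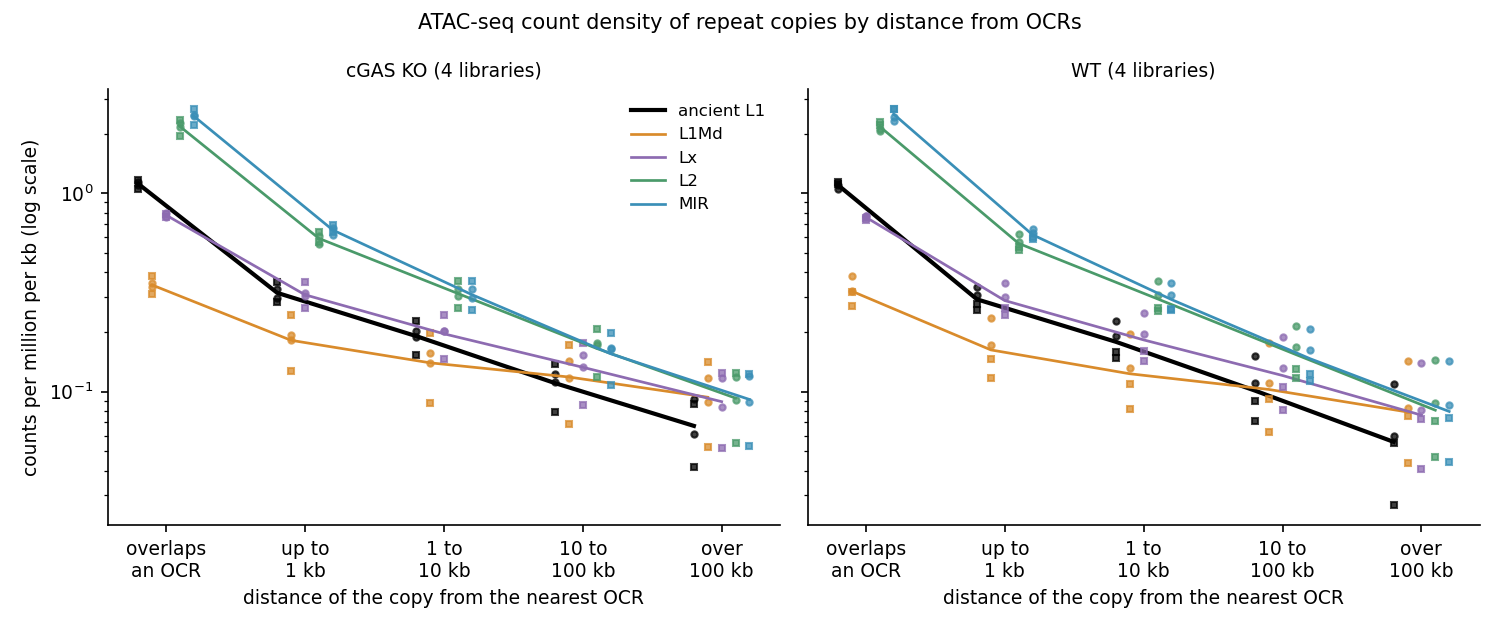
CPM per kb (log scale) of ancient L1, L1Md, Lx, L2 and MIR copies in classes of distance from the nearest OCR, for cGAS KO (left) and WT (right). Points are libraries (circles labelled female, squares labelled male) and lines join the geometric means of 4 libraries. Ancient L1 goes below the 4 other classes shown over 100 kb from an OCR in both genotypes, and L1 copies of other names are not shown.

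L1MB copies were the densest of the ancient L1 name groups outside OCRs. They had 0.221, 0.241, 0.185 and 0.267 CPM per kb in KO, and 0.258, 0.223, 0.176 and 0.184 in WT. L1MA copies had 0.161, 0.163, 0.121 and 0.189 in KO, and 0.195, 0.154, 0.110 and 0.128 in WT. In each library L1MB was above L1MA, by 1.37, 1.48, 1.53 and 1.41 times in KO and by 1.32, 1.45, 1.601 and 1.44 times in WT. L1MB over L1MA was 1.26 to 1.35 among copies up to 1 kb from an OCR and 1.25 to 1.44 at 1 to 10 kb. It was 1.12 to 1.31 at 10 to 100 kb and 0.953 to 1.05 over 100 kb, so the gap was gone in the farthest class. HAL1 copies came next, at 1.22 to 1.40 times L1MA, and L1M1 to L1M8 copies were lowest among the large groups, at 0.892 to 0.937 times L1MA. Within a name group the genotypes overlapped, as for L1MB with 0.228 ± 0.035 in KO and 0.211 ± 0.038 in WT.

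**Figure D3:**
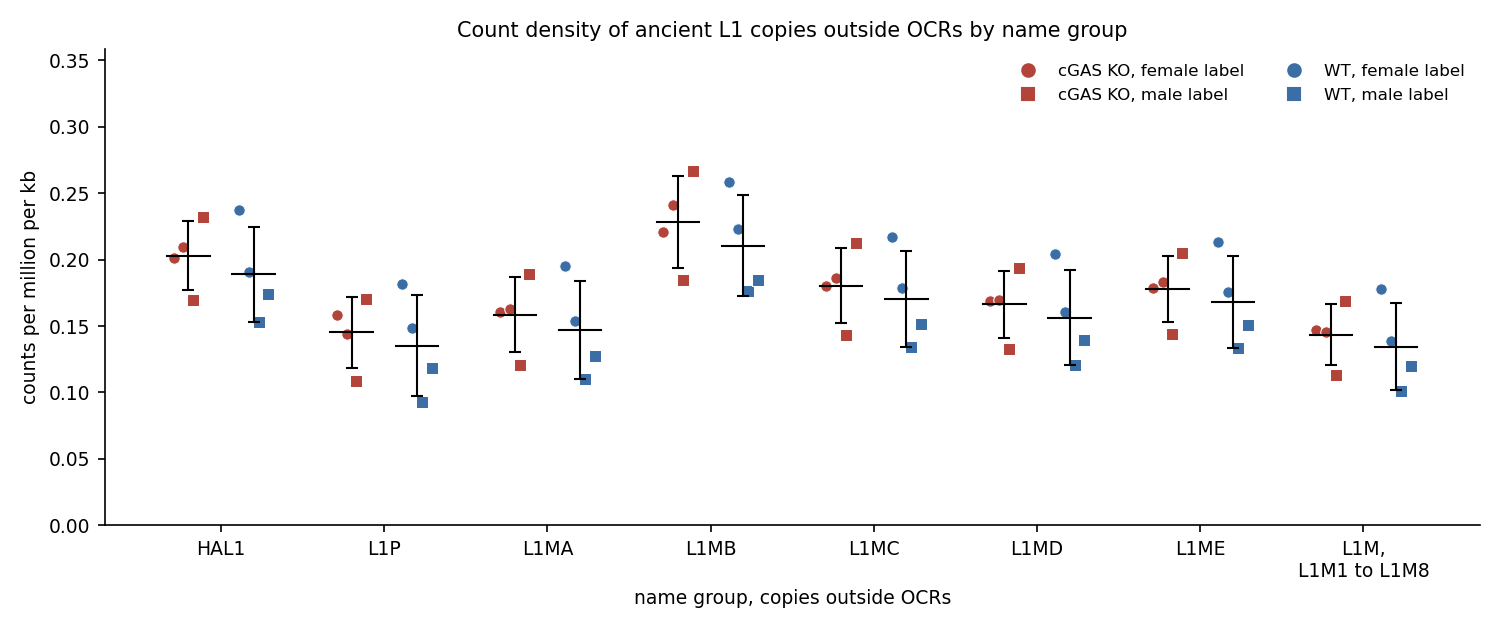
CPM per kb of ancient L1 copies outside OCRs in 8 name groups, with cGAS KO left of WT in each group. Circles are libraries labelled female, squares those labelled male, and bars give mean ± SD of 4 libraries, with L1MB highest (0.228 ± 0.035 in KO and 0.211 ± 0.038 in WT) and the genotypes overlapping in every group.

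Subfamilies also differed within groups. Over the 60 subfamilies of at least 100 kb, the median density of the 8 libraries outside OCRs ran from 0.111 in L1M2c to 0.242 in L1MB3, with L1MB2 (0.238) and L1MB5 (0.231) next to the top and L1M2 (0.120) near the bottom. Longer copies were less dense than short ones: ancient copies of 1 to 100 bases outside OCRs had 0.149 to 0.226 CPM per kb over the 8 libraries, and copies over 1000 bases had 0.0917 to 0.172. Single copies held few counts. The median copy had a mean of 2.125 counts per library, and 1853 copies (1.498%) had none in any library.

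Between genotypes, 0 of the 88 ancient L1 subfamilies that averaged 100 or more counts a library passed an adjusted p of 0.05 in edgeR's quasi-likelihood test, as did 0% of all 831 retrotransposon subfamilies tested. An unadjusted p under 0.05 was reached by 2 of the 88, against 1.81% of the 831, with 1 higher and 1 lower in KO, against 0.963% and 0.842% of the 831. DESeq2 also called 0 of the 88. The subfamily differences were small: the log2 fold change of KO over WT ran from -0.20 (L1M8) to 0.35 (L1M3a), with a median of 0.04 against 0.06 over all 831. No 95% interval of the 88 reached a 2-fold difference in either direction. Of the 88, 67 lay above 0, as did 624 of the 831. That count was 31 with scaling by retrotransposon copies, 39 with DESeq2 and 81 with scaling by OCRs, so the direction of the class depends on the scaling. It was 49 without KO M2 or without WT M1, still a majority, so single libraries weakened the direction without turning it.

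Within name groups the counts above 0 also depended on the scaling, and in most groups on single libraries. All 9 L1MA and all 7 L1MB subfamilies lay above 0 (medians 0.09 and 0.06), but with scaling by retrotransposon copies 7 and 4 did, and none of these 16 passed the test. L1MC had 10 of 11 above 0, and 0 of 11 with scaling by retrotransposon copies. L1ME had 18 of 27, L1MD 4 of 6, HAL1 2 of 4, L1P 2 of 2 and L1M1 to L1M8 15 of 22 above 0, and these counts were 7, 2, 2, 1 and 8 with scaling by retrotransposon copies. Single libraries moved these values too. Without KO M2, L1MA had 6 of 9 above 0 with a median of 0.0054, L1MB 6 of 7 (median 0.05), L1MC 5 of 11, L1MD 3 of 6, L1P 1 of 2 and L1M1 to L1M8 10 of 22. Without WT M1, L1MA had 9 of 9 above 0 with a median of 0.04, while L1MC had 6 of 11, L1MD 3 of 6, L1ME 12 of 27, L1P 0 of 2 and L1M1 to L1M8 10 of 22. Without KO F1, L1P had 1 of 2 above 0.

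L1M8, a small subfamily of 129 copies, had the lowest p of the 88. Its copies summed to 9.60, 9.77, 10.5 and 9.52 CPM (here per scaled library) in KO, and 11.3, 11.1, 10.9 and 12.2 CPM in WT. Every KO library was below every WT library. The log2 fold change was -0.20 (95% interval -0.36 to -0.05, adjusted p = 0.875 in edgeR), and L1M8 did not pass the test. Outside OCRs the KO libraries had 6.14 to 6.41 CPM and the WT libraries 6.44 to 8.39 CPM. A single copy outside OCRs held 10.6% of its counts, and without that copy KO was 0.907 times WT, against 0.868 times in the fit with it. L1M8 was singled out in earlier results of these data, so these values are a description.

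Of the other subfamilies at the ends of the ranking, L1MEj (121 copies) had 8.01, 9.09, 8.53 and 9.13 CPM in KO, and 7.64, 8.38, 7.18 and 6.99 CPM in WT. Its groups overlapped, its log2 fold change was 0.20 (interval 0.01 to 0.39, adjusted p = 0.875 in edgeR), and 1 copy outside OCRs held 9.53% of its counts. Without that copy KO was 1.08 times WT, against 1.15 times in the fit with it. L1M3a (53 copies) had 6.64, 5.19, 5.97 and 5.86 CPM in KO and 6.04, 4.63, 3.54 and 4.49 CPM in WT. Its lowest KO library was below its highest WT library. L1MB2, with 1848 copies, had 241, 251, 244 and 263 CPM in KO and 228, 237, 232 and 236 CPM in WT, and each KO library was above each WT library, at a log2 fold change of 0.10 (interval -0.01 to 0.21). On the lower side L1M3f (40 copies) averaged 2.54 ± 0.32 CPM in KO and 2.85 ± 0.32 CPM in WT, and L1MEh (160 copies) 7.22 ± 0.31 CPM in KO and 7.87 ± 0.97 CPM in WT. L1MEh turned to a log2 fold change of 0.05 when only copies outside OCRs were summed. In the 88 subfamilies, 3 had KO and WT libraries that did not overlap (L1MB2 and L1MB8 above, L1M8 below), against 1.32% of the 831, 0.722% above and 0.602% below.

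Of the 4 subfamilies with the most counts, L1M5 (9942 copies) had 598, 604, 591 and 606 CPM in KO and 599, 593, 565 and 612 CPM in WT. The log2 fold change was 0.02 (interval -0.10 to 0.13), that is 0.936 to 1.097 times WT. L1MB7 (3744 copies) averaged 579 ± 10 CPM in KO and 559 ± 16 CPM in WT, with a log2 fold change of 0.05 (interval -0.06 to 0.16). L1M4 (6225 copies) averaged 543 ± 12 CPM in KO and 528 ± 19 CPM in WT, with 0.04 (interval -0.08 to 0.16). L1M2 (9069 copies) varied most, with 623, 591, 532 and 657 CPM in KO and 657, 573, 475 and 564 CPM in WT, and a log2 fold change of 0.09 (interval -0.16 to 0.33). All 4 had groups that overlapped, and of their counts 19.04% (L1M2) to 41.8% (L1MB7) lay in copies that overlap an OCR.

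**Figure D4:**
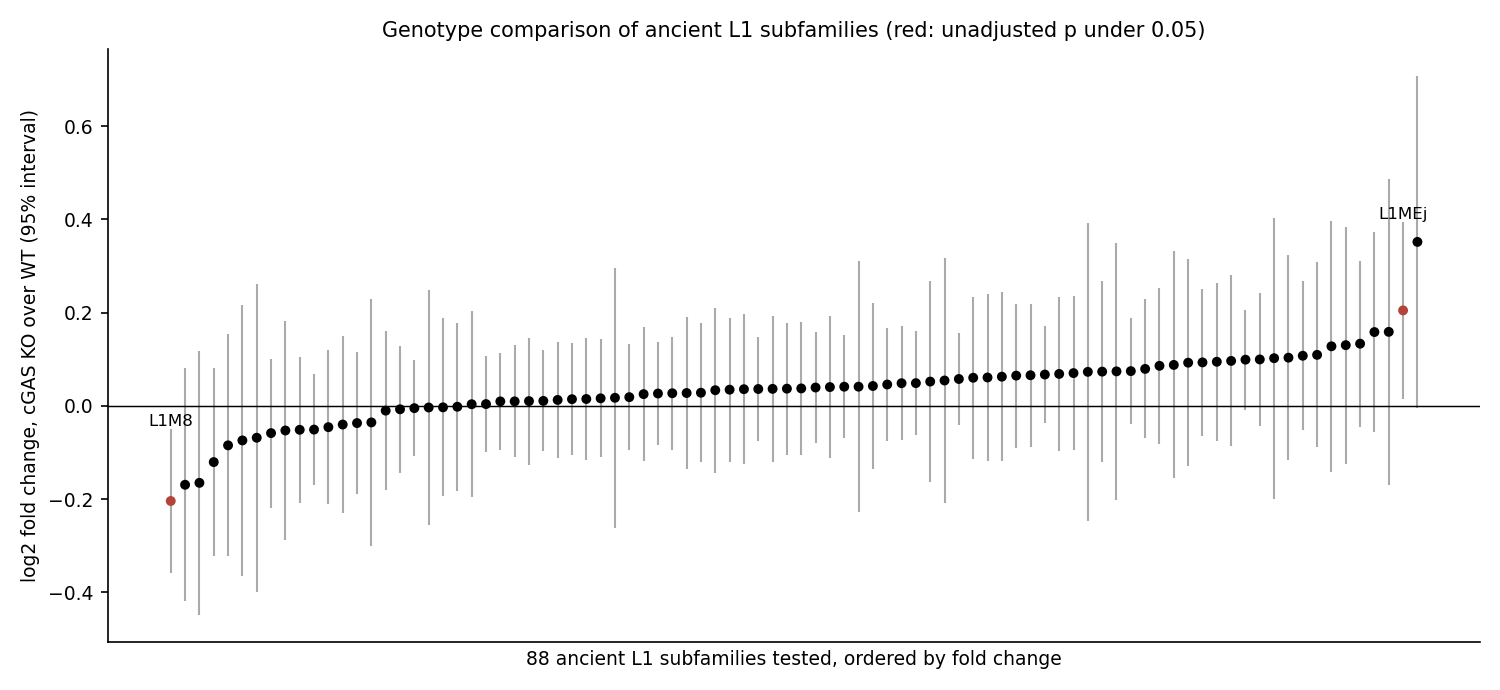
Log2 fold change of cGAS KO over WT with its 95% interval for each of the 88 ancient L1 subfamilies tested, in order of size, with 4 libraries per genotype. The points run from -0.20 (L1M8) to 0.35 (L1M3a), and the 2 red points, L1M8 and L1MEj, have an unadjusted p under 0.05 with no subfamily past the adjusted threshold.

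At single copies, 0 of the 23499 ancient copies that passed the count filter passed the adjusted threshold in edgeR, as did 0% of all 570571 copies tested. The filter kept 82.1% of the copies in OCRs and 15.6% of those outside, and since it asks for counts in only 2 libraries, a copy could pass through the group where it was high. An unadjusted p under 0.05 was reached by 820 ancient copies higher in KO and 292 lower in KO, together 4.73%, against 2.58%, 0.956% and 3.54% of all copies. Among copies in OCRs this share was 6.98%, against 4.95% of all copies there, and among copies outside OCRs 4.09%, against 3.27%. The KO and WT libraries did not overlap in 835 ancient copies (3.55%), 605 of them with KO above WT and 230 below, against 2.54% of all copies, 1.75% above and 0.783% below. DESeq2, whose own filter left 2341 ancient copies, called 6 of them (0.256%) against 0.0829% of all 50653, and each of the 6 was higher in KO, as were 0.0809% of the 50653.

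The copy with the lowest p was an L1MA4 fragment of 406 bases at chr3:31270228-31270633 in GRCm39, 2790 bases from the nearest OCR. It had 0.550, 0.605, 0.431 and 0.580 CPM in KO, and 0.147, 0.140, 0.0665 and 0.0309 CPM in WT. The groups stood far apart on few counts, 35 in KO F1 and 2 in WT M2, and the log2 fold change was 2.54 (interval 1.66 to 3.41, adjusted p = 0.848 in edgeR). An L1MC3 copy at chr10:96292070-96294051, 772 bases from an OCR, had 1.29, 1.29, 1.17 and 2.34 CPM in KO and 0.441, 0.357, 0.482 and 0.356 CPM in WT. KO M2 stood above the other KO libraries there, and all KO libraries were above all WT libraries (adjusted p = 0.848 in edgeR and 9.7e-04 in DESeq2). An L1MB1 copy of 383 bases at chr6:50354882-50355264 lay wholly inside an OCR and had 2.05, 2.29, 2.13 and 3.20 CPM in KO and 0.923, 0.993, 0.890 and 0.448 CPM in WT, with a 2.98-fold difference (adjusted p = 0.848 in edgeR and 0.0081 in DESeq2). These copies were picked by the lowest p among all 23499, which favours separated groups and large folds.

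Of the other 4 copies called by DESeq2, an L1MA8 copy at chr15:66966821-66967385, 522 bases from an OCR, averaged 1.60 ± 0.19 CPM in KO and 0.558 ± 0.153 CPM in WT. An L1MB3 copy at chr16:36452019-36452785, wholly inside an OCR, averaged 1.52 ± 0.51 CPM in KO and 0.564 ± 0.118 CPM in WT. An L1M4 copy at chr2:70708838-70716363 had 270 of its 807 bases in an OCR and averaged 1.19 ± 0.34 CPM in KO and 0.431 ± 0.118 CPM in WT, and an L1MB5 copy at chr13:98819744-98820195 averaged 0.969 ± 0.292 CPM in KO and 0.317 ± 0.103 CPM in WT (DESeq2 adjusted p = 0.0136 to 0.0498 for these 4). In all 6 DESeq2 calls every KO library was above every WT library, and none of the 6 passed in edgeR. The 6 were picked by a test between the genotypes in these same libraries, which favours such a separation.

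On the lower side, WT values were more scattered than KO values in the L1MD copies listed. An L1MD1 copy at chr6:49962774-49965282, in 7 segments with 907 of its 1798 bases in OCRs, had 1.32, 2.05, 1.85 and 1.67 CPM in KO and 1.79, 3.47, 7.24 and 2.67 CPM in WT. The groups overlapped, and WT M1 was the highest library. An L1MD2 copy of 199 bases at chr13:99797615-99797813 averaged 0.0959 ± 0.0288 CPM in KO and 0.336 ± 0.198 CPM in WT. An L1MA7 copy at chr3:26276449-26277420 averaged 0.248 ± 0.096 CPM in KO and 0.579 ± 0.147 CPM in WT, with every KO library below every WT library (adjusted p = 1.00 for all 3 in edgeR).

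The copies with the most counts outside OCRs did not separate the genotypes. An L1MB5 copy at chr19:5880698-5881126 had 5.73, 5.64, 8.48 and 5.14 CPM in KO and 5.62, 5.95, 7.88 and 7.98 CPM in WT. An L1M4 copy near it, at chr19:5888371-5888781, had 3.63, 4.96, 6.76 and 4.75 CPM in KO and 3.46, 4.81, 7.80 and 5.77 CPM in WT. In both, KO M1 was the highest KO library and the male-labelled WT libraries lay above the female-labelled ones, and their log2 fold changes of -0.12 and -0.09 had intervals across 0. An L1MD3 copy at chr17:73281320-73282906 averaged 3.73 ± 1.151 CPM in KO and 4.18 ± 0.77 CPM in WT, and an L1MB8 copy at chr7:83675872-83676505 averaged 2.88 ± 0.916 CPM in KO and 3.505 ± 0.709 CPM in WT. All 4 lay 268 to 1605 bases from an OCR, so the annotated edge of a peak was near.

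OCRs that hold an ancient copy were tested as units, since copy and OCR share counts. Of the 185268 OCRs, 6349 (3.43%) overlapped an ancient copy, and in 2288 of these 1 ancient copy was the only repeat. They held fewer counts than OCRs as a whole, per OCR and not per kb. The median OCR with an ancient copy had a mean of 1.22 CPM, against 1.65 over all OCRs and 1.57 over those without a repeat. It was 0.976 where 1 ancient copy was the only repeat. A read end in both an OCR and a copy gave each an equal fraction, which lowers the count of an OCR that holds a copy. The median length was 542 bases for OCRs with an ancient copy and 519 bases for all OCRs. It was 457 bases where 1 ancient copy was the only repeat and 457 bases for OCRs without a repeat. The parts of this sharing and of OCR length in the gap were not tested. L1M1 to L1M8 copies were in 1521 of the 6349, L1MB in 1325, L1MC in 1122, L1ME in 1033, L1MA in 820, L1MD in 504, HAL1 in 158 and L1P in 5. In edgeR, 0 of the 6349 passed the adjusted threshold, as did 0% of all OCRs, and 693 (10.9%) had an unadjusted p under 0.05, against 9.91% of all. Higher in KO were 493 (7.76%) and lower 200 (3.15%), against 6.09% and 3.82% of all. DESeq2 called 79 of 5438 (1.45%), 72 of them higher in KO, against 1.60% and, higher in KO, 1.35% of all OCRs it tested. KO and WT libraries did not overlap in 414 (6.52%), against 6.04% of all OCRs. KO lay above WT in 269 (4.24%) and below in 145 (2.28%), against 3.23% and 2.81% of all. The shares in either direction were thus near those of all OCRs, while those with KO higher were above them in edgeR's unadjusted p and in the count without overlap.

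The OCR with the lowest p in this set, at chr6:50354699-50355772, holds the L1MB1 copy described above. It had 6.87, 7.12, 5.62 and 9.81 CPM in KO and 3.76, 3.68, 2.80 and 2.83 CPM in WT, a 2.27-fold difference (adjusted p = 0.334 in edgeR), with no overlap between the genotypes. The OCR at chr3:149085643-149086141, which holds a whole L1ME4c copy of 89 bases, had 1.16, 1.87, 0.756 and 2.19 CPM in KO and 0.508, 0.379, 0.310 and 0.210 CPM in WT. The OCR at chr14:65181221-65181674, with a whole L1MD2 copy of 105 bases, averaged 1.24 ± 0.23 CPM in KO and 0.435 ± 0.140 CPM in WT. Each of these OCRs higher in KO also overlaps repeats outside the class, with 2 repeats in all at chr6 and chr3 and 3 at chr14. On the lower side, the OCR at chr16:95443581-95444144, which overlaps an L1M2 and an L1M5 copy, had 3.74, 4.11, 4.87 and 3.75 CPM in KO and 5.71, 5.48, 8.52 and 10.5 CPM in WT. The OCR at chr13:42027883-42028228, with 35 bases of an L1MA6 copy, averaged 0.297 ± 0.087 CPM in KO and 0.785 ± 0.271 CPM in WT, and the OCR at chr10:106833689-106834363, with 468 bases of an L1M2c copy, averaged 0.249 ± 0.024 CPM in KO and 0.608 ± 0.109 CPM in WT. Each of these 6 separated the genotypes, and each had an adjusted p of 0.334 in edgeR. DESeq2 gave adjusted p = 0.0014, 0.0031 and 0.0052 for those at chr6, chr3 and chr14, and 0.0131 and 0.0410 for those at chr16 and chr13. It gave no adjusted p for the one at chr10. These OCRs were picked by the lowest p in each direction, which favours separated groups and large folds.

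The strongest OCRs with 1 ancient copy as their only repeat were alike in both genotypes. The OCR at chr5:143845807-143847158 averaged 30.6 ± 2.1 CPM in KO and 29.7 ± 3.3 CPM in WT, and only 33 of its 1352 bases were an L1M5 copy. The OCR at chr14:63257957-63259188, with 301 bases of an L1MA5 copy, averaged 27.0 ± 2.7 CPM in KO and 30.7 ± 4.2 CPM in WT. The OCR at chr15:81613789-81614578, with 36 bases of an L1MC4a copy, averaged 27.6 ± 2.0 CPM in KO and 27.4 ± 3.0 CPM in WT. The 95% intervals of their log2 fold changes all lay within -0.45 and 0.28.

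At ancient copies on the X chromosome the gap between sex labels was wide away from OCRs and narrow in them. There were 9418 copies on X, 7.62% of the class, against 11.3% of L1Md, 6.17% of L2 and 5.58% of MIR copies. Over 100 kb from an OCR, the density of X copies was 0.504, 0.510, 0.524 and 0.458 times that of autosomal copies in the male-labelled libraries KO M1, KO M2, WT M1 and WT M2, and 0.888, 0.802 and 0.839 times in KO F1, WT F1 and WT F2. The library labelled KO F2 had 0.581 times, nearer to the male-labelled libraries. At 1 to 10 kb the ratios were 0.420 to 0.490 in the male-labelled libraries, 0.627 to 0.721 in the other 3 female-labelled ones and 0.525 in KO F2. In copies that overlap an OCR the ratio was 0.433 to 0.463 in the male-labelled libraries, 0.497 to 0.499 in the other 3 female-labelled ones and 0.465 in KO F2, without overlap between the male-labelled libraries and those 3. X copies lay far from OCRs more often than others, and 18.4% of the ancient copies over 100 kb from an OCR were on X, against 2.74% of those that overlap one. Summed over the class, X copies had 2.49 to 3.22 counts per 100 autosomal counts in the male-labelled libraries, 3.93 to 4.62 in the other 3 female-labelled ones and 3.25 in KO F2.

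**Figure D5:**
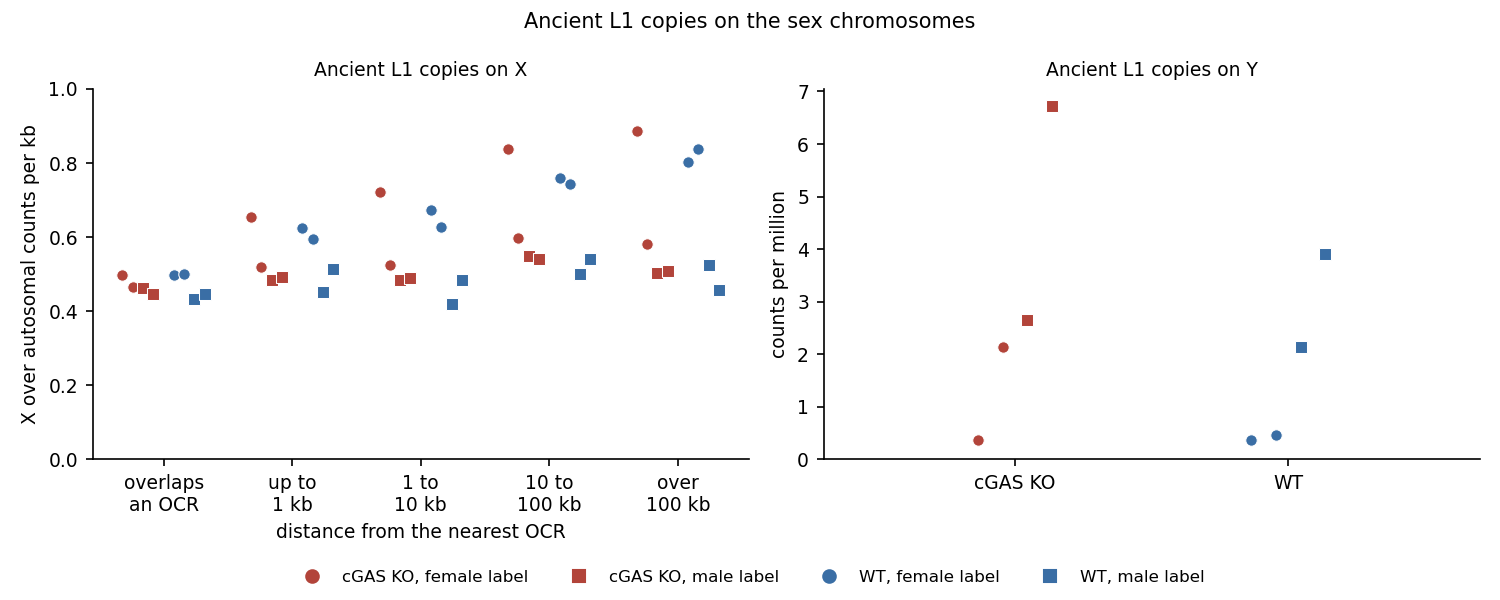
Left, density of ancient L1 copies on X relative to that on autosomes in classes of distance from the nearest OCR; right, CPM of the 822 ancient copies on Y, for cGAS KO (left of each pair) and WT. Each point is a library (circles labelled female, squares labelled male), and over 100 kb from an OCR the male-labelled libraries sit at 0.458 to 0.524 and the female-labelled ones at 0.802 to 0.888 except KO F2 at 0.581.

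On Y the class has 822 copies, of which 440 had a count in any library. L1MD names make up 458 of them, L1M1 to L1M8 names 266 and HAL1 names 70. They summed to 193, 291, 142 and 276 counts in KO M1, KO M2, WT M1 and WT M2, and to 23, 20 and 29 counts in KO F1, WT F1 and WT F2. The library labelled KO F2 had 126. Within 2 Mb of the start of Y, a limit taken from earlier results of these data, the 17 copies had 14, 11, 13 and 3 counts in the male-labelled libraries, 9 in KO F2 and 0 in each of the other 3, which allows up to 3 counts in each of those.

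No ancient subfamily passed the adjusted threshold for the sex label in edgeR (0 of 88, and 0% of all 831), and 0 of the 88 had an unadjusted p under 0.05, against 1.68% of the 831. KO F2 was fitted as female here, although its X and Y counts lay nearer those of the male-labelled libraries. This limits what the fits of the sex label and of the interaction can show. DESeq2 also called 0 of the 88. Without KO M2, 3 of the 88 were called, L1MA10, L1MA4A and L1ME3B, each lower in male-labelled libraries (log2 fold changes of male over female of -0.30, -0.23 and -0.21, adjusted p = 0.0428, 0.0467 and 0.0439 in edgeR), against 202 of the 831 (24.3%). At single copies 0 of 23499 passed in edgeR and in DESeq2, against 0% and 0.00526% of all 570571 copies, and 578 had an unadjusted p under 0.05 in edgeR (2.46%, against 4.46% of all). Of the 707 tested copies on X, 71 (10.04%) had an unadjusted p under 0.05, 67 of them lower in male-labelled libraries, against 23.2% and, lower in male, 23.0% of all tested copies on X. The genotype difference was not shown to differ between the sex labels: in edgeR the interaction passed in 0 of 88 subfamilies and 0 of 23499 copies (0% of all in both), with 0 of the 88 and 449 of the copies (1.91%, against 2.17% of all) at an unadjusted p under 0.05. DESeq2 also called 0 in both.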

How the data were processed

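The deposited table holds expected counts per region, made by the authors with featureCounts 2.0.3 over peaks and repeats in GRCm39, per the file headers: paired reads were reduced to 5' ends, and an end in several regions gave each an equal fraction. The submitters' processing notes also name Trim Galore, Bowtie2, SAMtools, Picard, MACS2 and bedtools. Whether cut sites were shifted is not given in the sources used here. Counts were rounded for the models. edgeR 4.0.16 (R 4.3.3; glmQLFit, robust) tested genotype with the sex label as a covariate, with each library's table total as its size and TMM scaling over copies and OCRs jointly, or OCRs alone in OCR fits. Copies were filtered by filterByExpr and subfamilies by a mean of 100 counts, and p-values were adjusted by Benjamini-Hochberg over all features tested, with a threshold of 0.05. The fits were also run on simulated counts with known changes, all larger than the subfamily differences found here, and the outcome is not given. DESeq2 1.42.0, other scalings, filters, a replicate block and leaving out each library were alternatives. Shares and densities have no test. Named features were the 4 subfamilies with the most counts, 3 a direction by p, and L1M8; the 4 copies highest outside OCRs and 3 copies a direction by p; 3 OCRs a direction by p, and the 3 strongest with only ancient L1; chromosome 18, Y and scaffolds were passed over. Copies called by DESeq2 were added after their values were seen. Members and lists were chosen with earlier results of these data known. Intervals are 95% and cover the spread between libraries; counting floors cover counting error only.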

Additional observations from a re-analysis of the deposited data

Results flagged for a closer look

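In groups of 4 libraries, 106 sets of values were searched for a single library far from the other 3, and 2 were found; chance alone gives about 1 in 20. L1MB7 had 536 CPM in WT F1, the lowest WT library, against 565 to 570 CPM in the other 3 WT libraries. The L1MC3 copy at chr10:96292070-96294051 had 2.34 CPM in KO M2, against 1.17 to 1.29 CPM in the other 3 KO libraries.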

How the results depend on the processing

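The count of ancient subfamilies past the threshold between genotypes stayed 0 under every alternative run, including the replicate block (0 subfamilies, 0 copies and 0 OCRs). Same-numbered libraries deviated together for female 1 and female 2 (r = 0.59 and 0.61 across OCRs) and oppositely for male 1 and male 2 (-0.29 and -0.45). The labels name no shared batch, so the numbers were not taken as pairs; a batch shared by the female libraries was not tested. In all, 2 of 4 correlated best with their own number. With DESeq2, 6 copies and 79 OCRs with an ancient copy were called, against 0 and 0 in edgeR. A looser filter (a total of 10 counts) called 1 ancient copy by sex label, against 0, with the share of all copies not given here. Leaving out single libraries gave 0 to 3 subfamilies by sex label, and 0 subfamilies, copies and OCRs by genotype and 0 copies by sex label; the interaction was not refitted without single libraries. With scaling by retrotransposon copies the log2 fold change turned to -0.037 in L1M5, -0.0080 in L1MB7 and -0.017 in L1M4, and with DESeq2 to -0.027 in L1M5 and -0.0065 in L1M4; with copies outside OCRs it was 0.046 in L1MEh; leaving out libraries gave -0.0052 to 0.041 in L1M5 and -0.0036 to 0.15 in L1M2. The cause was not tested. L1M8 stayed between -0.25 and -0.14, and L1MB2 between 0.04 and 0.17, under all alternatives. The share difference ran from -0.17 to 0.068 percentage points without single libraries, and from -0.10 to 0.056 outside OCRs. Copies of 200 to 1000 bases gave a ratio to L1Md of 1.16, against 1.52. At least 50% of the copy inside an OCR held for 3251 copies, against 6388 with any overlap, by construction. No filter changed nothing for OCRs, since all 185268 were kept. Depth limits single copies: the median copy had 2.125 counts per library.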

Other observations

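Under the looser count filter, 1 ancient copy passed the adjusted threshold for the sex label (adjusted p = 0.0448 in edgeR, the lowest of 84244 ancient copies tested there). It is an autosomal L1MB3 fragment of 617 bases at chr14:46180660-46181276 in GRCm39, 6353 bases from the nearest OCR. It had 3, 1, 0 and 1 counts in the male-labelled libraries KO M1, KO M2, WT M1 and WT M2, and 16, 13, 13 and 10 counts in KO F1, KO F2, WT F1 and WT F2. The library labelled KO F2, which lay with the male-labelled libraries on X and Y, lay with the other female-labelled ones here. The copy was picked by a test on that label, which favours such a split, and it was named after its values were seen. The share of all copies called under this filter is not given here, so this call is not read as a trait of the class.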
